A study of Mus musculus with 16 samples.

Results

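Peroxisomes are small organelles that shorten very long and branched fatty acids, which mitochondria handle poorly, and this account describes the mRNA of 35 genes for building them and for oxidizing lipids inside them. The 35 genes were chosen by name, as peroxins, ABCD transporters, and peroxisomal oxidation and nudix enzymes, out of 27446 entries of the deposited table. Abcd4 is a member by family, although it works at the lysosome. Every member was found in the table and had enough counts to be tested. RNA was sequenced from livers of wild-type C57BL/6 mice in 2 groups of 8. The emodin group received emodin, an anthraquinone of rhubarb, by the intragastric route at 400 mg/kg for 3 weeks in carboxymethyl cellulose sodium (0.5%). The vehicle group was given that carrier without emodin. All mice had been acclimated for 7 days, and livers were taken after the last dose. The labels give neither age nor sex, test a single dose and time, and leave unsaid whether the libraries stem from separate animals. Each library was taken as 1 mouse, so p-values reflect the spread between libraries, which may be partly technical. The comparison of emodin with vehicle asks how the liver responds to a compound that the series title links to liver toxicity.

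As background, peroxisomal matrix proteins are made in the cytosol, bound by the receptors Pex5 or Pex7 through short targeting signals, and passed through a membrane complex of other peroxins. ABCD transporters of the peroxisome bring very-long-chain, branched-chain and bile acid precursor acyl-CoAs into the organelle. There acyl-CoA oxidases open each round of shortening and release hydrogen peroxide, which catalase removes. Carnitine transferases, thioesterases and nudix hydrolases then deal with the shortened chains and with free coenzyme A. In rodent liver many of these genes are induced through PPARα, the receptor through which fibrate drugs act.

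Library depth ran from 28.3 M to 48.2 M estimated counts (M, mega), and levels below are counts per 1 M counts after TMM scaling (CPM). The tissue label was met by level, since markers of most other cells were counted too. The 8 hepatocyte markers summed to a median of 109594 CPM with vehicle and 86096 CPM with emodin. The highest sum among the other cell types, that of 5 erythroid markers, had medians of 320 and 315 CPM. Emodin livers 4 and 8 stood apart from the rest. Their summed hepatocyte markers were at 56555 and 69904 CPM, against 98927 to 127571 CPM in the vehicle livers and 73216 to 107231 CPM in the other emodin livers. Of those 8 markers, 1 was called lower (Alb, albumin) and 0 higher, and Alb made up most of the sum, at 84492 CPM with vehicle and 59544 CPM with emodin. The other 7 markers summed to 18339 and 16843 CPM in emodin livers 4 and 8, against 23835 to 28363 CPM with vehicle and 24800 to 28664 CPM in the other emodin livers. A log2 fold change below 0 was found for 7 of the 8 markers. Ttr was below the vehicle mean in all 8 emodin livers (-0.23 ± 0.12, edgeR adjusted p = 0.212), and Cyp2e1 had a value of -0.12 ± 0.21. Hnf4a was above the vehicle mean in all 8 emodin livers (log2 fold change 0.36 ± 0.12, edgeR adjusted p = 0.0607), and Apoa1, Cps1 and Apoc3 had values between -0.04 and -0.0049. The 5 cholangiocyte markers summed to 173 and 118 CPM in emodin livers 4 and 8, against 33.6 to 65.9 CPM in all other livers, with 0 of 5 called. The 8 interferon-induced genes summed to 675, 1628, 1166 and 1587 CPM in emodin livers 2, 4, 5 and 8 and to 57.9 to 111 CPM in the other 12 livers, vehicle included, and 7 of the 8 were called higher. Acute phase mRNA ranged from 2917 to 20276 CPM with emodin and from 2317 to 2713 CPM with vehicle, and 6 of its 6 genes were called higher. Of the markers of other cells, 1 of 7 endothelial and 1 of 8 lymphocyte genes were called lower, and 0 of 8 macrophage, 7 stellate, 3 neutrophil and 5 erythroid genes were called. The 4 adipocyte markers had too few counts to be tested. Fewer cells of a type and less RNA per cell cannot be told apart in bulk liver RNA. The part of these shifts in the results below was not tested beyond leaving the livers out.

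With emodin, 6 members fell, namely Abcd2, Abcd3, Pex7, Hacl1, Crot and Nudt7, and 1 rose, the lysosomal Abcd4. The other 28 did not pass the threshold, an adjusted p under 0.05 in edgeR's quasi-likelihood test with Benjamini-Hochberg adjustment over 14308 tested entries. Across those entries 5.47% were called lower and 7.7% higher, 13.2% in either direction. The median log2 fold change, emodin over vehicle, was -0.12 over the 35 members and 0.01 over all tested entries. A value below 0 was found for 24 of the 35 members and for 48.4% of all tested entries. An unadjusted p under 0.05 was reached by 15 of the 35 members and by 29.7% of all tested entries. Split by role, of 13 peroxins 1 fell and 0 rose (median 0.03), and of the other 22 members 5 fell and 1 rose (median -0.20). That difference between the subgroups was not tested.

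**Figure D1:**
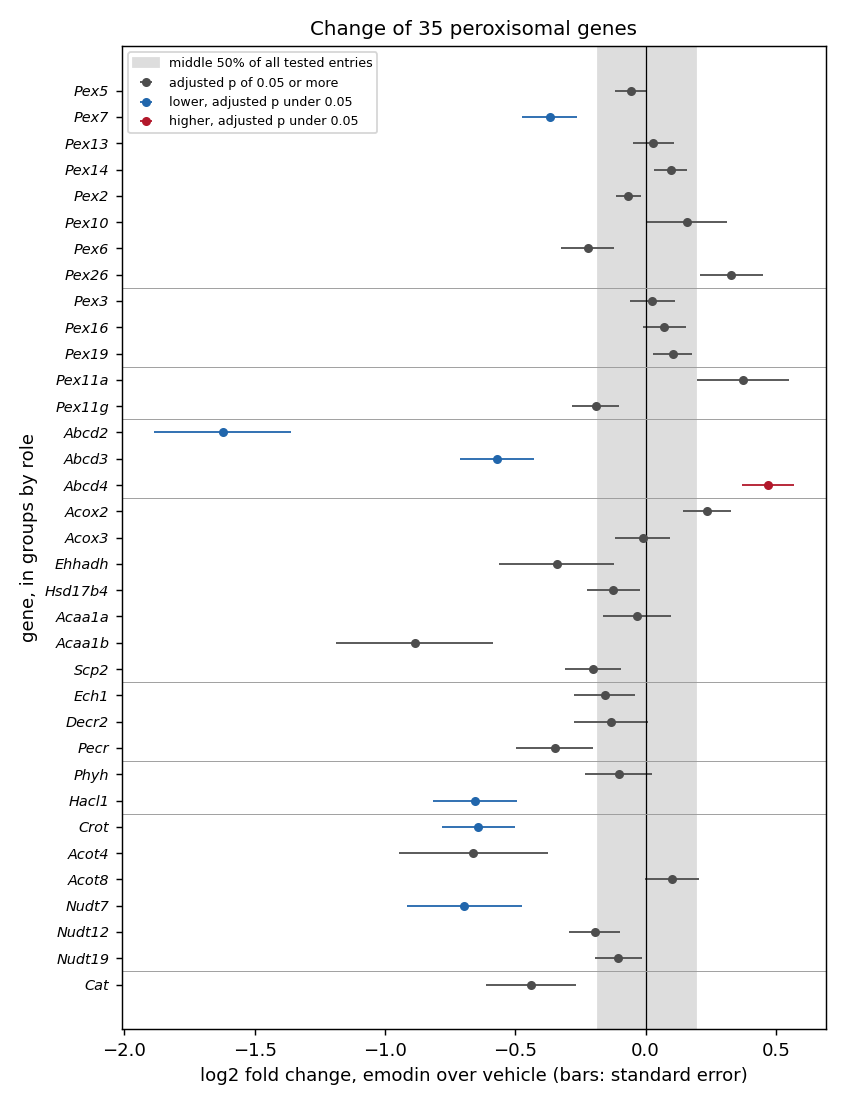
Log2 fold change of the 35 peroxisomal genes, emodin over vehicle (points, with standard errors as bars, 8 livers per group), in groups by role, over a grey band that holds the middle 50% of all tested entries. Abcd2 lies farthest to the left at -1.62, and the peroxins other than Pex7 are grey points between -0.22 and 0.37.

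Without emodin livers 4 and 8, a check chosen after seeing the data, 6 members were again called lower and 2 higher, beside 3.96% and 5.47% of all entries tested in that fit. The fallen 6 then held Acaa1b in place of Nudt7, and Pex26 joined Abcd4 among the risen. Without emodin livers 2, 4, 5 and 8, those with high interferon-induced genes, 4 members were called lower (Abcd2, Abcd3, Crot and Acaa1b) and 2 higher (Abcd4 and Pex26), beside 2.94% and 3.87% of all entries tested there. The median log2 fold change of the members, -0.12 with all livers, was -0.03 without emodin 4 and 8 (all entries 0.01). Without emodin 2, 4, 5 and 8 that median was -0.05 (all entries -0.006), so most of the shift in the median was lost in both fits. Pex26 was also called higher when emodin 4, emodin 8 or vehicle 1 was left out, with log2 fold changes of 0.38, 0.38 and 0.39 and edgeR adjusted p of 0.045, 0.0384 and 0.0447.

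Of the 8 genes for import of matrix proteins, 1 fell and 0 rose, with a median log2 fold change of -0.01. Pex7, the receptor for the N-terminal targeting signal carried by thiolase and phytanoyl-CoA hydroxylase (chr10:19853900-19907689 of mm10), was the member that fell. Its lowest, median and highest vehicle livers were at 63.5, 76.1 and 79.7 CPM, and its emodin livers at 41.0, 61.8 and 70.7 CPM. Emodin livers 4 and 8 were lowest, at about the same level, and emodin 1, 2 and 3 also lay below every vehicle liver, while the other three overlapped with the vehicle range. The mean went from 74.9 ± 5.24 to 58.1 ± 10.99 CPM (SD, n = 8 each), a log2 fold change of -0.37 ± 0.11 (SE) with an edgeR adjusted p of 0.0299. The call was lost when vehicle 1, 3 or 8 was left out (-0.35 each, edgeR adjusted p of 0.055, 0.0557 and 0.0555). It was also lost without emodin 2, 4, 5 and 8 (-0.21, edgeR adjusted p = 0.0768). Leaving out only emodin 4 and 8 gave -0.22 (edgeR adjusted p = 0.0275).

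The receptor Pex5, which carries proteins with the C-terminal signal and takes most of the matrix load, was at 80.8 ± 3.97 CPM with vehicle and 77.7 ± 6.33 CPM with emodin, a log2 fold change of -0.06 ± 0.06 that did not pass (edgeR adjusted p = 0.565). Pex13 and Pex14, which dock the loaded receptors at the membrane, had log2 fold changes of 0.03 and 0.10. Pex2 and Pex10, ubiquitin ligases that mark the receptor for recycling, had values of -0.07 and 0.16. Pex6, an ATPase that pulls the receptor back out, was at 53.0 CPM with vehicle and 45.5 CPM with emodin, and its value of -0.22 ± 0.10 did not pass (edgeR adjusted p = 0.146). Pex26, the membrane anchor of that ATPase, was at 16.9, 19.6 and 25.6 CPM (lowest, median, highest) with vehicle and 18.5, 26.0 and 33.0 CPM with emodin. In 4 emodin livers it exceeded every vehicle liver, and emodin 4 and 8 were the lowest of their group. Its log2 fold change of 0.33 ± 0.12 did not pass (edgeR adjusted p = 0.0784).

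Of the 3 peroxins that insert membrane proteins, 0 passed in edgeR or DESeq2 and 0 had an unadjusted p under 0.05 in edgeR: Pex3, Pex16 and Pex19 had log2 fold changes between 0.03 and 0.10. Of the division factors of the Pex11 family, Pex11a, the form that responds to peroxisome proliferators, was at 62.6, 84.0 and 139 CPM with vehicle (lowest, median, highest) and 82.0, 109 and 168 CPM with emodin. The groups overlapped over most of their range, with emodin 2 and 5 the only livers above every vehicle liver. The log2 fold change of Pex11a was 0.37 ± 0.18 (edgeR adjusted p = 0.169). Pex11g was at 30.4 CPM with vehicle and 26.6 CPM with emodin, and its value of -0.19 ± 0.09 did not pass (edgeR adjusted p = 0.167).

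All 3 ABCD members passed the test, in different directions. Abcd2 imports very-long-chain and polyunsaturated acyl-CoAs (chr15:91145871-91191799). Its vehicle livers were at 28.4, 38.2 and 63.0 CPM (lowest, median, highest), and its emodin livers at 4.85, 13.5 and 20.7 CPM. Every emodin liver lay below every vehicle liver, which held for 2 of the 35 members and for 1.03% of all tested entries. Emodin 2 was lowest, followed by emodin 4 and 5, while emodin 8 lay above the middle of its group. The mean fell from 40.2 ± 10.8 to 13.1 ± 5.76 CPM, 3.08-fold lower, with a log2 fold change of -1.62 ± 0.26 and an edgeR adjusted p of 0.00163. The value lay between -1.75 and -1.23 over 28 alternative settings.

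Abcd3, also known as PMP70, is an abundant protein of the peroxisomal membrane and carries branched-chain and bile acid precursor acyl-CoAs (chr3:121758774-121815302). It was at 516, 626 and 687 CPM (lowest, median, highest) in vehicle livers and 252, 449 and 543 CPM in emodin livers. Emodin 4 and 8 were lowest, and emodin 1 and 3 reached into the vehicle range, just above its lowest liver, vehicle 2. The mean fell from 615 ± 56.0 to 414 ± 106 CPM, with a log2 change of -0.57 ± 0.14 (edgeR adjusted p = 0.0158). Without emodin 4 and 8 the value was -0.40, and without emodin 2, 4, 5 and 8 it was -0.32, still called (edgeR adjusted p of 0.0118 and 0.0376).

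Abcd4 belongs to the same family by sequence but works at the lysosome, where it helps cobalamin (vitamin B12) leave for the cytosol (chr12:84601464-84617413). Vehicle livers were at 7.81, 9.11 and 12.0 CPM (lowest, median, highest) and emodin livers at 11.5, 11.9 and 15.9 CPM. All emodin livers were above every vehicle liver but vehicle 6, and emodin 2, 4 and 7 were above that liver too. Emodin livers all above every vehicle liver were found for 0 of the 35 members and for 0.937% of all tested entries. The mean rose from 9.34 ± 1.34 to 12.9 ± 1.74 CPM, 1.38-fold, with a log2 fold change of 0.47 ± 0.10 and an edgeR adjusted p of 0.00694. Abcd4 remained called in all 28 alternatives, as did Abcd2, Abcd3 and Crot.

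**Figure D2:**
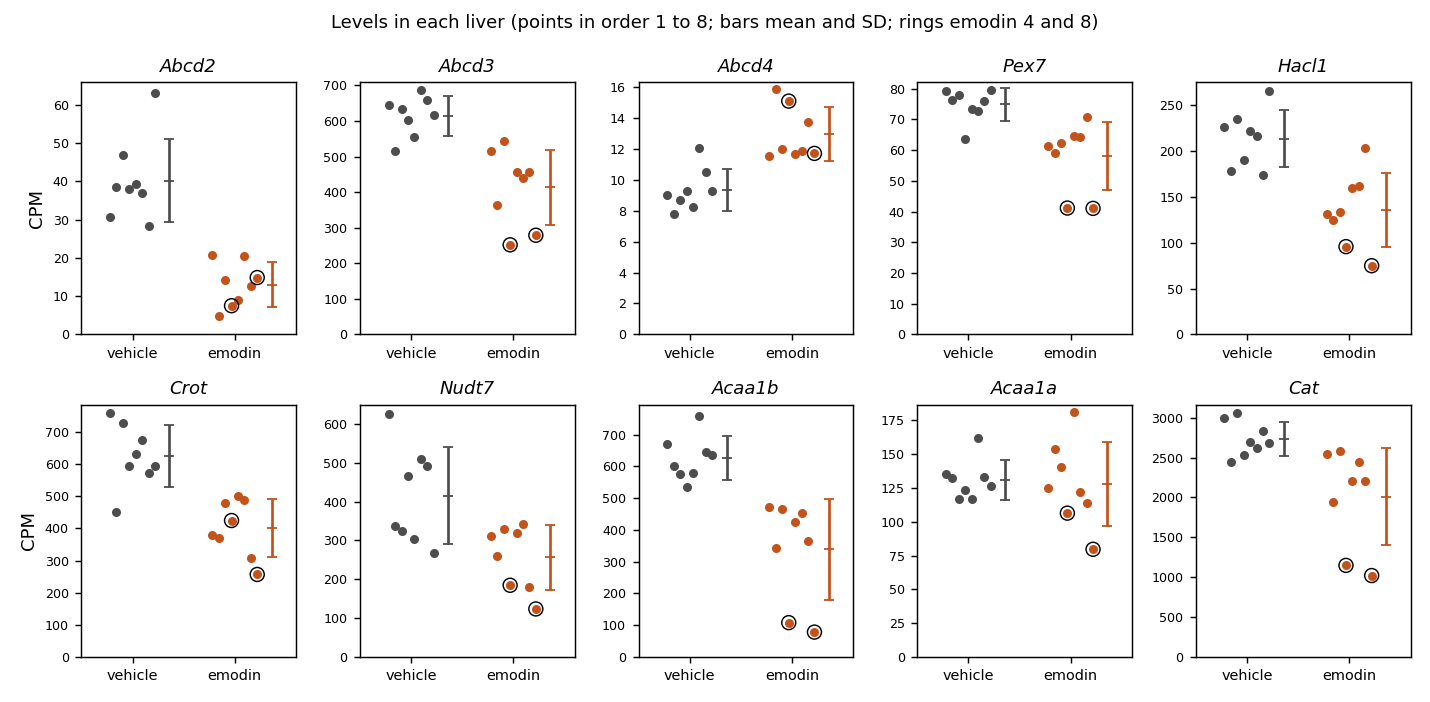
CPM of the 7 called members and of Acaa1b, Acaa1a and Cat in each liver (points, vehicle grey and emodin orange, in order 1 to 8 from left to right), with the mean and SD beside each group and rings around emodin 4 and 8. Abcd2 and Acaa1b show a gap between the groups, and emodin 4 and 8 are the lowest 2 livers for Abcd3, Pex7, Hacl1, Acaa1b, Acaa1a and Cat.

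Of the 7 core enzymes of peroxisomal beta-oxidation, 0 passed edgeR's test, 2 had an unadjusted p under 0.05, and DESeq2 called 1, Acaa1b, lower. Acox2, the oxidase for bile acid precursors and branched chains, was at 143 CPM with vehicle and 168 CPM with emodin, with all 8 emodin livers above the vehicle mean and a log2 change of 0.24 ± 0.09 (edgeR adjusted p = 0.0964). Acox3, a second branched-chain oxidase, was at 22.5 and 22.4 CPM. Ehhadh, the L-bifunctional enzyme that hydrates and dehydrogenates the chain, was at 255, 325 and 392 CPM with vehicle (lowest, median, highest) and 122, 246 and 542 CPM with emodin. Its emodin livers spread to both sides of the vehicle range: 5 lay below it, emodin 8 lowest, and emodin 5 lay above it. The log2 fold change of Ehhadh was -0.34 ± 0.22 (edgeR adjusted p = 0.318), and without emodin 5 it was -0.58 and called (edgeR adjusted p = 0.0284). Leaving out emodin 4 and 8 gave -0.13 for Ehhadh (edgeR adjusted p = 0.699). Hsd17b4, the D-bifunctional enzyme used for bile acid precursors, and Scp2, whose products include the thiolase for branched chains, had values of -0.12 and -0.20 that did not pass.

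The last step of each round is cut by 3-ketoacyl-CoA thiolase, and mice have 2 genes for it on the same chromosome, Acaa1a (chr9:119339676-119350299) and Acaa1b (chr9:119148023-119157093). Acaa1b was at 536, 619 and 760 CPM with vehicle (lowest, median, highest) and 78.1, 395 and 473 CPM with emodin. No emodin liver reached the vehicle range, and emodin 4 and 8, at 108 and 78.1 CPM, lay far below the other emodin livers. The mean went from 626 ± 69.4 to 339 ± 159 CPM, 1.85-fold lower, a log2 fold change of -0.89 ± 0.30 that narrowly missed the threshold (edgeR adjusted p = 0.0619). Acaa1b was called lower without emodin 8 (-0.73, edgeR adjusted p = 0.0422), without emodin 4 and 8 (-0.56, edgeR adjusted p = 0.00185) and without emodin 2, 4, 5 and 8 (-0.51, edgeR adjusted p = 0.0075).

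Acaa1a was at 117, 130 and 162 CPM with vehicle (lowest, median, highest) and 79.6, 124 and 182 CPM with emodin. Its emodin livers spread around the vehicle range, emodin 8 lowest and emodin 5 highest, and its log2 fold change was -0.03 ± 0.13 (edgeR adjusted p = 0.894). The ratio of Acaa1b to Acaa1a within a liver was 4.35, 4.90 and 5.02 with vehicle (lowest, median, highest) and 0.980, 2.77 and 3.78 with emodin, without overlap. Their sum was 660, 749 and 923 CPM with vehicle and 158, 537 and 608 CPM with emodin, again without overlap. The longest open reading frames of the pair are 96.5% identical (1231 of 1275 bases), and how shared reads were counted is not stated, so the values of these genes are uncertain one by one.

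Upstream of their starts the paired thiolase genes look little alike. The 130 bases before each start are shown because the coding parts are near copies while the levels of the genes are not. They come from RefSeq on GRCm38.p6, 5′ to 3′ on the strand of the gene, with capitals marking GGGCGG (a GC box) and CCAAT or its reverse complement ATTGG, at chr9:119341164-119341293 (plus strand) for Acaa1a and chr9:119157094-119157223 (minus strand) for Acaa1b. The RefSeq start of Acaa1a, base 119341294, is also that of 1 of its 10 GENCODE transcripts, while others begin farther upstream, so its window lies inside the gene span given above, between annotated exons.
Acaa1a: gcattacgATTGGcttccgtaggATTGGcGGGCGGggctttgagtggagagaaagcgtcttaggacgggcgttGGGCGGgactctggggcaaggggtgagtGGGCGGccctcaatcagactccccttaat
Acaa1b: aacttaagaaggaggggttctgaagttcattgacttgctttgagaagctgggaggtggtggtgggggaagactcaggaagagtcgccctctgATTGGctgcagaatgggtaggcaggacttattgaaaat
The longest stretch that the shown windows share exactly is 8 bases. The Acaa1a window holds 3 GC boxes and the Acaa1b window holds none, and a match of letters is a description, not a site.

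Of the 3 auxiliary enzymes for unsaturated chains, 0 passed in edgeR or DESeq2, and 1 had an unadjusted p under 0.05 in edgeR. Ech1, which moves double bonds, and Decr2, which reduces them, had log2 fold changes of -0.16 and -0.13. Pecr, a reductase of trans-2-enoyl-CoA, was at 143, 152 and 168 CPM with vehicle (lowest, median, highest) and 64.8, 131 and 156 CPM with emodin. Emodin 8 and 4 were lowest, and 6 of the emodin livers lay below every vehicle liver. The log2 fold change of Pecr was -0.35 ± 0.15 (edgeR adjusted p = 0.122), and -0.15 without emodin 4 and 8.

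Alpha-oxidation removes a single carbon from chains such as phytanic acid. Phyh, the hydroxylase that starts it, was at 1826 CPM with vehicle and 1702 CPM with emodin and did not pass (log2 fold change -0.10 ± 0.13, edgeR adjusted p = 0.632). Hacl1, the lyase that follows it (chr14:31598730-31641286), was at 174, 219 and 266 CPM with vehicle (lowest, median, highest) and 75.1, 133 and 203 CPM with emodin. All emodin livers but emodin 7 lay below every vehicle liver, and emodin 8 and 4 were lowest. The mean fell from 214 ± 31.1 to 136 ± 40.01 CPM, 1.57-fold lower, with a log2 fold change of -0.65 ± 0.16 and an edgeR adjusted p of 0.0147. The value was -0.48 without emodin 4 and 8 (edgeR adjusted p = 0.019) and -0.43, no longer called, without emodin 2, 4, 5 and 8 (edgeR adjusted p = 0.0643).

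Of the 6 genes that release shortened chains or handle coenzyme A, 2 fell and 0 rose. Crot transfers medium-length chains to carnitine so that they can leave for the mitochondria (chr5:8966033-8997324). It was at 452, 613 and 760 CPM with vehicle (lowest, median, highest) and 257, 403 and 502 CPM with emodin. Emodin 8 and 7 were lowest, and every emodin liver lay below every vehicle liver but vehicle 2. The mean of Crot fell from 626 ± 97.5 to 402 ± 88.9 CPM, 1.56-fold lower, with a log2 fold change of -0.64 ± 0.14 and an edgeR adjusted p of 0.00809. The value moved between -0.70 and -0.56 over the 28 alternatives.

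Nudt7, the main peroxisomal hydrolase of coenzyme A in liver (chr8:114133557-114154739), was at 267.5, 402.7 and 624.7 CPM with vehicle (lowest, median, highest) and 123, 286 and 343 CPM with emodin. Emodin 8, 7 and 4 were lowest, and 4 emodin livers lay below every vehicle liver, while the vehicle livers themselves were widely spread. The mean fell from 416 ± 126 to 257 ± 83.3 CPM, a log2 fold change of -0.69 ± 0.22 with an edgeR adjusted p of 0.0461, close to the threshold. The call of Nudt7 was lost when emodin 2, 4, 7 or 8 or vehicle 1, 3, 4, 6 or 7 was left out, with values from -0.73 to -0.58 and edgeR adjusted p from 0.0525 to 0.0886. Leaving out emodin 4 and 8 gave -0.50 (edgeR adjusted p = 0.122), and without emodin 2, 4, 5 and 8 it was -0.51 (edgeR adjusted p = 0.267).

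The other 4 genes of this group did not pass. Acot4, a thioesterase for succinyl-CoA, was at 53.3, 101 and 153 CPM with vehicle (lowest, median, highest) and 28.6, 50.9 and 122 CPM with emodin. The groups overlapped, with emodin 6 lowest and emodin 7 highest of the emodin livers. The log2 fold change of Acot4 was -0.66 ± 0.29 (edgeR adjusted p = 0.134), and without emodin 7 it was -0.85 and called (edgeR adjusted p = 0.0404). Acot8, a thioesterase of broad range, had a value of 0.10. Nudt12, which cleaves NADH and related nucleotides, had a value of -0.20, and Nudt19, another hydrolase of coenzyme A, had a value of -0.10.

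Cat, which encodes catalase (chr2:103453849-103485160), was at 2438, 2687 and 3060 CPM with vehicle (lowest, median, highest) and 1020, 2204 and 2584 CPM with emodin. Emodin 8 and 4 were lowest by a wide margin, and 5 emodin livers lay below every vehicle liver. The mean was 2730 ± 217 CPM with vehicle and 2011 ± 610 CPM with emodin, a log2 fold change of -0.44 ± 0.17 that did not pass (edgeR adjusted p = 0.0974). The value of Cat was -0.23 without emodin 4 and 8, and without emodin 2, 4, 5 and 8 it was -0.15.

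Levels between genes were compared per kilobase of merged exon length, in the vehicle livers. Catalase stood highest at 1045 ± 82.9 CPM per kilobase, Phyh (965 ± 97.3) followed within its spread, and Scp2 (903 ± 70.5) lay below catalase by more than its SD but within the spread of Phyh. Acaa1b came next at 319 ± 35.4 CPM per kilobase, well apart from all neighbours. Crot, Hsd17b4, Ehhadh, Pecr, Ech1 and Abcd3 lay close together between 115 and 93.2 CPM per kilobase. Abcd2, whose fold change was the largest of the members, ranked only 27 of the 35 by level, at 6.76 CPM per kilobase. The lowest were Acox3 (1.96), Abcd4 (1.17) and Pex10 (0.914 CPM per kilobase). Merged length joins the exons of all annotated transcripts, 11521 bases for Acox3 and 8006 for Abcd4, so genes with long merged exons may rank too low.

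The SD was larger in the emodin group for 30 of the 35 members and smaller for 5 (Abcd2, Nudt7, Crot, Nudt12 and Pex2), which was not tested. The summed CPM of the 35 members was 11621, 12748 and 13899 with vehicle (lowest, median, highest) and 6728, 11105 and 12306 with emodin, with emodin 8 lowest and emodin 4 next at 7621. In emodin livers 1 to 8, respectively, 10, 11, 7, 24, 10, 6, 11 and 23 members lay below every vehicle liver. The same was true of 25.7% of all tested entries in emodin 4 and 26.0% in emodin 8, and of 13.4% to 23.9% in the other emodin livers. Above every vehicle liver lay 1 member each in emodin 4 and 8, against 26.4% and 26.8% of all tested entries. The median log2 ratio of a member to its vehicle mean was -0.36 in emodin 4 and -0.51 in emodin 8, and -0.09 to 0.01 in the other emodin livers. Over all tested entries that median lay between -0.03 and 0.00 in every emodin liver.

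Emodin 8 was the lowest of all 16 livers for 19 of the 35 members and for 13.8% of all tested entries. Emodin 4 was lowest for 3 members and for 10.6% of all tested entries. Both livers also had the lowest summed hepatocyte markers and the highest summed cholangiocyte markers and interferon-induced genes of the 16, and the part of these in the result was not tested. Emodin 5, which shared the high interferon-induced genes, had another pattern. It was the highest of all 16 livers for 9 members (Pex5, Pex13, Pex3, Pex16, Pex19, Pex11a, Ehhadh, Acaa1a and Acot8) and for 11.5% of all tested entries. In emodin 5, 10 members lay above every vehicle liver and 10 below, near the 24.5% and 23.9% of all tested entries. Abcd2 followed neither pattern, since its lowest liver was emodin 2.

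**Figure D3:**
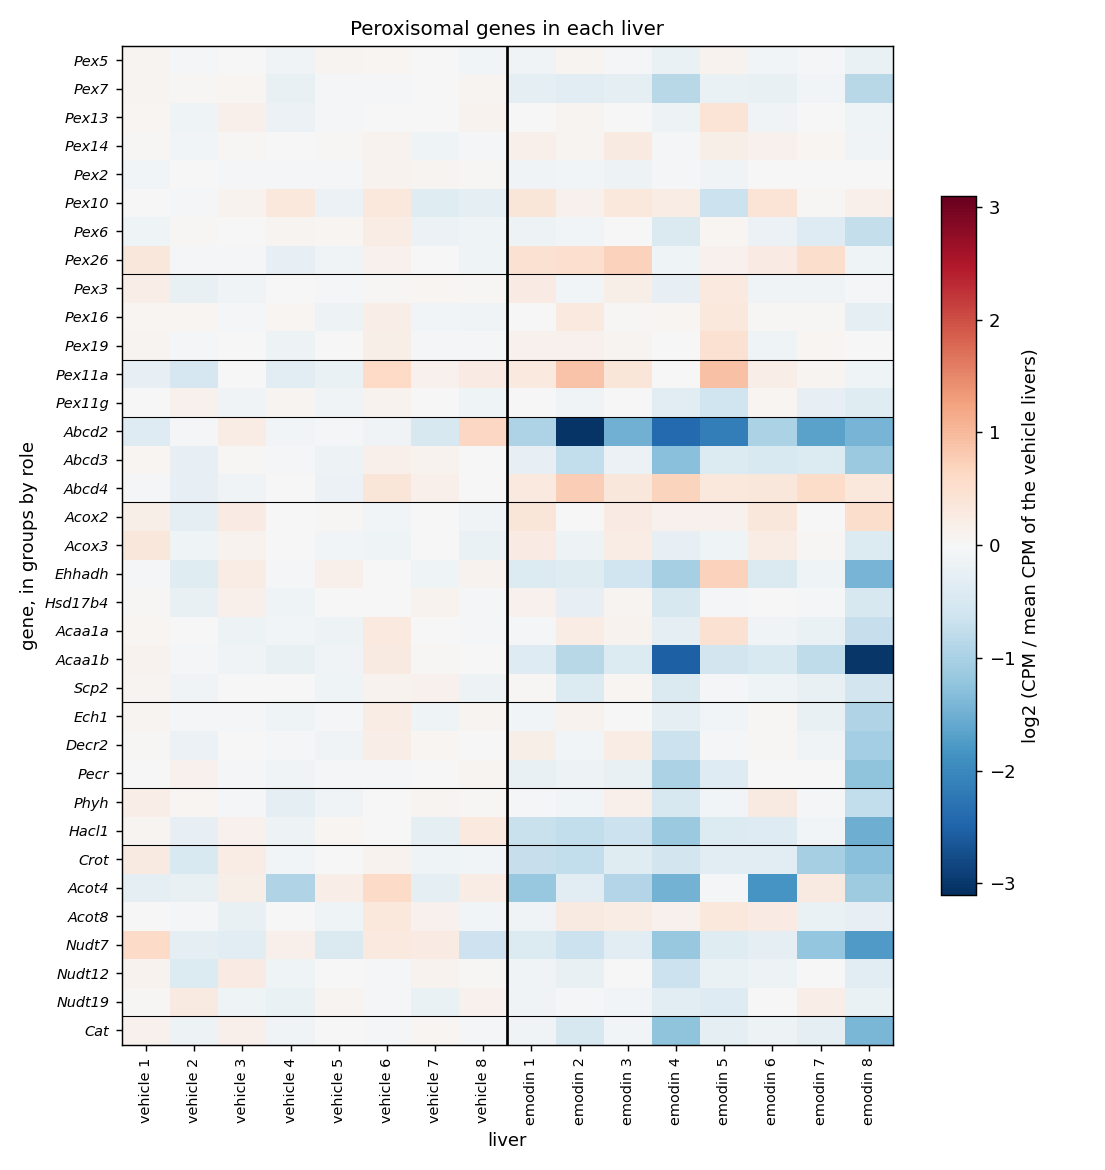
Each square shows log2 of a gene's CPM in 1 liver over its mean in the 8 vehicle livers, for the 35 peroxisomal genes (rows, by role) and 16 livers (columns). The columns of emodin 4 and 8 are the bluest, while Abcd2 is blue in all 8 emodin livers and Abcd4 is red in all 8.

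**Figure D4:**
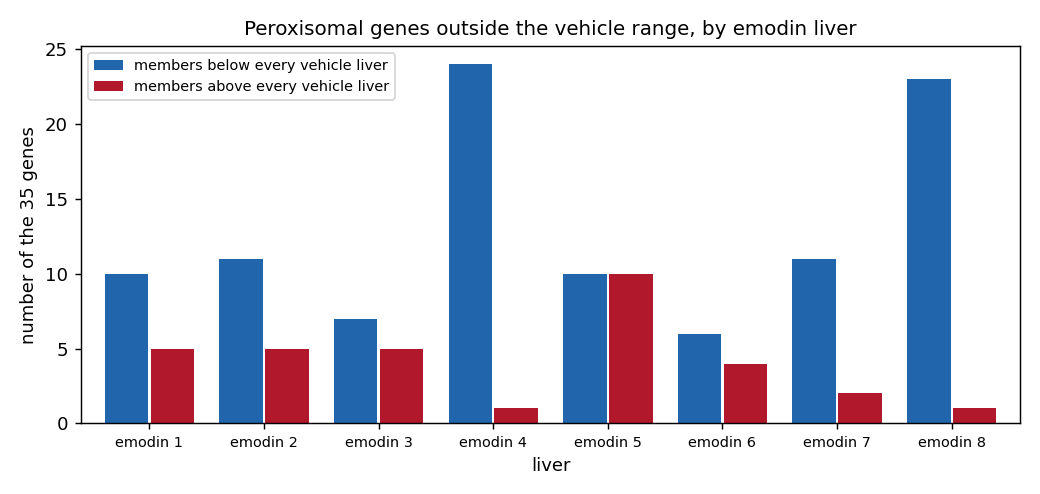
Number of the 35 peroxisomal genes that lay below every vehicle liver (blue) or above every vehicle liver (red) in each of the 8 emodin livers. Emodin 4 and 8 have 24 and 23 genes below and 1 above (all tested entries: 25.7% and 26.0% below, 26.4% and 26.8% above), and emodin 5 has 10 on each side (23.9% below, 24.5% above).

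The rest of the organelle was described with 50 further genes, of which 49 were in the table and 43 could be tested. Of these 43, 5 fell and 1 rose, beside 5.47% and 7.7% of all tested entries. Their median log2 fold change was -0.09, and 36 had a value below 0, against 48.4% of all tested entries. Tmem189 was not analysed here. Without emodin 4 and 8 the count was 3 lower and 1 higher, beside 3.96% and 5.47% of all entries tested in that fit. The gene higher there was not Xdh, the one that rose with all livers, whose call was lost (edgeR adjusted p = 0.0633). It belonged to the genes of biogenesis and membrane. Without emodin 2, 4, 5 and 8 the count was 2 lower and 0 higher, beside 2.94% and 3.87%. The count lower was 3 when emodin 2 or vehicle 3 was left out, and the count higher was 2 when emodin 8 or vehicle 6 was left out.

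Among 15 tested genes of biogenesis and membrane, 1 fell and 0 rose (median -0.05). This was Acbd5, which tethers peroxisomes to the endoplasmic reticulum and binds very-long-chain acyl-CoAs. It fell from 321 ± 31.7 to 233 ± 47.6 CPM, with 6 emodin livers below every vehicle liver and a log2 change of -0.46 ± 0.12 (edgeR adjusted p = 0.0176). Without emodin 2, 4, 5 and 8 the value of Acbd5 was -0.29 and not called (edgeR adjusted p = 0.0543).

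Of 14 further tested genes of peroxisomal lipid oxidation, 0 passed in edgeR's test in either direction, 3 had an unadjusted p under 0.05, and all 14 had a value below 0 (median -0.14). DESeq2 called 1 of them, Baat, lower. Baat, which joins bile acids to glycine or taurine, was at 266 CPM with vehicle and 219 CPM with emodin, and its log2 fold change of -0.28 ± 0.09 lay at the edge of the threshold (edgeR adjusted p = 0.0502). It was called when emodin 1, 6 or 7 or vehicle 2 was left out, with values of -0.31 to -0.30 and edgeR adjusted p from 0.0393 to 0.046. Idh1, a supplier of NADPH shared with the cytosol, had a value of -0.21 ± 0.09 (edgeR adjusted p = 0.107), and without emodin 1 it was -0.26 and called (edgeR adjusted p = 0.0479).

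Ether lipid synthesis begins in the peroxisome, and 2 of its 4 tested genes fell while 0 rose (median -0.20). Gnpat, the acyltransferase that opens the pathway, fell from 39.9 ± 4.50 to 32.0 ± 4.70 CPM (log2 fold change -0.32 ± 0.09, edgeR adjusted p = 0.0305). Far1, the reductase that supplies fatty alcohols, fell from 4.56 ± 0.53 to 3.41 ± 0.63 CPM (log2 fold change -0.42 ± 0.13, edgeR adjusted p = 0.0343). Gnpat was no longer called without emodin 4 and 8 (-0.24, edgeR adjusted p = 0.102) or without emodin 2, 4, 5 and 8 (-0.14, edgeR adjusted p = 0.370). Its call was also lost when emodin 2, 4, 5 or 8 or vehicle 1, 2 or 3 was left out (-0.30 to -0.27, edgeR adjusted p from 0.0506 to 0.0618). Far1 was no longer called when emodin 1, 2, 3, 6 or 7 or vehicle 2, 3, 4, 7 or 8 was left out (-0.42 to -0.36, edgeR adjusted p from 0.0501 to 0.0744).

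Of 10 tested oxidases and redox enzymes outside lipid oxidation, 2 fell and 1 rose (median -0.16). Agxt, which detoxifies glyoxylate in the peroxisome, fell from 190 ± 12.1 to 141 ± 24.99 CPM, with every emodin liver below every vehicle liver (log2 fold change -0.43 ± 0.10, edgeR adjusted p = 0.0113). Paox, a polyamine oxidase, fell from 39.3 ± 4.84 to 29.8 ± 4.98 CPM (log2 fold change -0.40 ± 0.10, edgeR adjusted p = 0.0192), and without emodin 4 and 8 the value was -0.29 (edgeR adjusted p = 0.0566). Without emodin 2, 4, 5 and 8 Paox was at -0.26 (edgeR adjusted p = 0.160) and Agxt at -0.23, still called (edgeR adjusted p = 0.041). Xdh, a purine oxidase found mainly in the cytosol, rose from 129 ± 20.7 to 204 ± 64.6 CPM (log2 fold change 0.66 ± 0.17, edgeR adjusted p = 0.0178). Xdh was at 0.49 without emodin 4 and 8 (edgeR adjusted p = 0.0633), and without emodin 2, 4, 5 and 8 it was 0.21 (edgeR adjusted p = 0.313).

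PPARα drives many of the member genes in rodents, so its targets outside the peroxisome were set beside them. Of 21 such genes, 2 rose and 1 fell, beside 7.7% and 5.47% of all tested entries. Their median log2 fold change was 0.04, but the values spread from -1.66 to 2.00. Their quartiles were -0.38 and 0.46, against -0.18 and 0.19 over all tested entries. A value below 0 was found for 10 of the 21, and 7 had an unadjusted p under 0.05 in edgeR's test. Genes without a call included Cyp4a14 (-0.99 ± 0.40) and Fgf21 (2.00 ± 0.78). Cidec, a lipid droplet protein, rose from 2.30 ± 0.59 to 8.06 ± 5.63 CPM (log2 fold change 1.80 ± 0.36, edgeR adjusted p = 0.00576), and without emodin 2, 4, 5 and 8 the value was 0.69 and not called (edgeR adjusted p = 0.0618). Creb3l3, a transcription factor of the fasted liver, rose from 228 ± 20.6 to 290 ± 42.0 CPM (log2 fold change 0.35 ± 0.09, edgeR adjusted p = 0.0206). Acsl1, which activates long-chain fatty acids, fell from 773 ± 125 to 486 ± 177 CPM (log2 fold change -0.67 ± 0.21, edgeR adjusted p = 0.0453). Acsl1 lost its call when any library but emodin 1, 3 or 7 or vehicle 2 was left out (-0.70 to -0.55, edgeR adjusted p from 0.0534 to 0.0837), and without emodin 2, 4, 5 and 8 its value was -0.35 (edgeR adjusted p = 0.117). Of 10 receptors and partners of the PPAR family, 0 passed and 0 had an unadjusted p under 0.05 in edgeR's test, and DESeq2 also called 0. The smallest p among them belonged to Ppard (log2 fold change 0.36 ± 0.17) and Ppargc1a (-0.33 ± 0.18).

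The mitochondrial counterparts of beta-oxidation were set beside the members too. Of 16 genes, 2 fell and 0 rose, beside 5.47% and 7.7% of all tested entries. Their median was -0.22, and 15 had a value below 0, against 48.4% of all tested entries. In edgeR's test 9 of the 16 had an unadjusted p under 0.05, against 29.7% of all tested entries. The count lower lay between 2 and 5 over all alternatives, and between 2 and 4 with a library left out. Hadhb, the thiolase subunit of the mitochondrial trifunctional protein, fell from 167 ± 14.7 to 130 ± 13.7 CPM (log2 fold change -0.36 ± 0.08, edgeR adjusted p = 0.00766). Etfa, which passes electrons from the dehydrogenases, fell from 306 ± 14.4 to 231 ± 39.8 CPM, with every emodin liver below every vehicle liver (log2 fold change -0.41 ± 0.10, edgeR adjusted p = 0.0139). Leaving out emodin 2, 4, 5 and 8 gave -0.22 for Etfa, still called (edgeR adjusted p = 0.029).

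**Figure D5:**
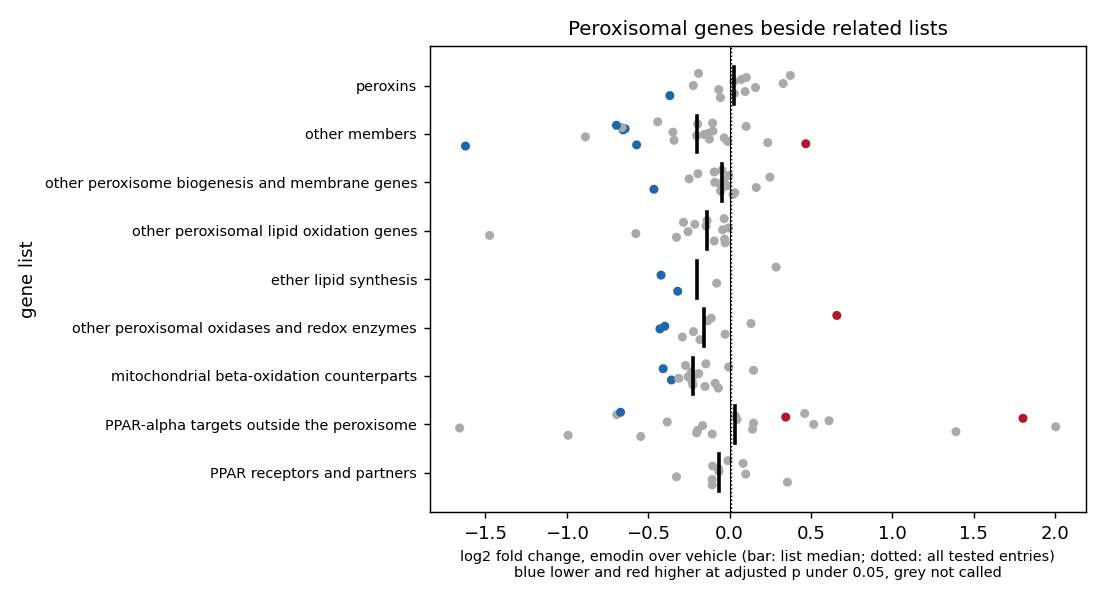
Log2 fold change, emodin over vehicle, of every tested gene of the peroxisomal members and of related lists (points, blue lower and red higher at an adjusted p under 0.05, grey not called), with a bar at each list's median and a dotted line at the median of all tested entries. List medians run from -0.22 for the mitochondrial counterparts to 0.04 for the PPARα targets.

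Promoter windows of 300 bases (250 before the start and 50 after it, RefSeq on GRCm38.p6) were matched for 29 of the 35 members and searched on both strands. The direct repeat that PPARα binds with its partner RXR, AGGTCA followed after any 1 base by AGGTCA, was found in 0 of the 29 and in 0.0481% of 27025 genes with such a window. A looser form with any base at the fourth position of each copy was found in 0 of the 29 and in 0.451% of genes. At shares this low, 0 of 29 cannot show whether the members differ from other genes. Sequence outside the windows was not searched. AGGTCA alone, which the strict repeat contains, was in 5 of the 29 (Acot4, Cat, Pex11g, Phyh and Scp2), 17.2% against 18.1% of genes. The GC box GGGCGG was in 21 of the 29 (72.4%, against 38.2% of genes), CCAAT in 13 (44.8% against 41.1%) and TATAAA in 4 (13.8% against 15.7%). A gene with several windows counted as holding a motif if any window did. Of the 5 fallen members with a window, Hacl1, Crot, Nudt7 and Pex7 held a GC box, Hacl1, Crot and Pex7 also CCAAT, and Abcd3 neither.

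Some members share exon sequence with a neighbour in GENCODE M21, and the strand setting of the counting is not given in the sources used here. Of the exon length of Hacl1, 31.1% is shared with Gm49387 on the same strand, whose own level was 0.0233 CPM with vehicle and 0 CPM with emodin. Acaa1b shares 11.4% with Dlec1 on the opposite strand, at 1.19 and 1.01 CPM. Acaa1a shares 6.57% with Myd88 on the opposite strand, a gene at 13.3 CPM with vehicle and 18.1 CPM with emodin. Pex11g, Nudt19 and Pex14 share between 28.3% and 41.1% with opposite-strand transcripts not analysed here. The closest relatives of Acot4, Acot3 and Acot1, have open reading frames 72.2% and 73.6% identical to it, and Abcd2 and Abcd3 are 48.1% identical to each other.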

How the data were processed

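RNA of 16 mouse livers was measured, 8 per group. The deposited table holds estimated counts per entry as the authors left them: whole numbers, not scaled by depth or length, although its name speaks of FPKM; rounding changed nothing, and 0 columns were left aside. The submitters' processing notes list Cufflinks 2.2.1, HTSeq 0.6.1, HISAT2, cutadapt 1.9.1 and SAMtools 0.1.19 beside the mm10 genome; their roles, annotation and read sharing are not given in the sources used here.

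The fit used R 4.3.3 and edgeR 4.0.16 (filterByExpr, TMM, robust quasi-likelihood F test, Benjamini-Hochberg adjustment over 14308 entries, adjusted p under 0.05). The script was tested on simulated data. CPM are after TMM, as mean ± SD of 8. The SE is the absolute log2 fold change over the square root of F. Counting error and PCR duplicates are covered only through the spread between libraries of 28.3 M to 48.2 M counts.

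The members and lists were chosen with earlier results of these data known. Named were all 35 members, called or non-overlapping ones by their values across the livers, and from each related list up to 4 called genes with the smallest p, or the 2 smallest p where none was called. Alternatives were DESeq2 1.42.0, limma 3.58.1 (trend, and array weights), other scalings and filters, annotated genes only, a replicate block and left-out livers. Symbols and coordinates come from GENCODE M21 (21779 of 21833 Ensembl IDs found), and open reading frames were aligned with Biopython 1.88. No member failed the low-count filter, so the permutation test planned for that case was not needed. Protein sequences were not used here.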

Additional observations from a re-analysis of the deposited data

Results flagged for a closer look

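Of 70 sets of 8 values (35 members in each group), 6 held a liver that stood apart from the other seven of its group by Dixon's test, and chance alone flags about 1 in 20 such sets. Emodin 5 gave 4 of them. Pex13 was at 73.0 CPM there, with the next liver at 58.3 CPM, and Pex19 at 119.9 CPM, with the next at 95.0 CPM. Ehhadh was at 542.5 CPM in emodin 5, with the next at 303.7 CPM, and Pex10 was lowest there at 1.89 CPM, with the next at 3.09 CPM. In the vehicle group, Pex7 was lowest in vehicle 4 at 63.5 CPM, with the next at 72.9 CPM, and Acaa1a was highest in vehicle 6 at 162.1 CPM, with the next at 135.7 CPM.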

How the results depend on the processing

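Values were recomputed under 28 alternatives, 16 that leave out a library and 12 others, of which leaving out emodin 4 and 8 was chosen after seeing the data. Pex10, Far1, Cidec and Ppard had a value in only 11 of the 12 others. The number of members called lower, 6, lay between 4 and 8 over all 28 (4 to 7 with a library left out). The number called higher, 1, became 2 with library totals as the scaling, with array weights, without emodin 4 and 8, and without emodin 2, 4, 5 and 8, and was 1 to 2 with a library left out. For the other peroxisomal genes the number higher, 1, became 0 with array weights and without emodin 2, 4, 5 and 8 (1 to 2 with a library left out). Their number lower, 5, became 8 with DESeq2, 2 without emodin 2, 4, 5 and 8, and 3 without emodin 4 and 8 (3 to 6 with a library left out). The cause was not tested, and the fits that leave livers out also hold fewer samples.

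Signs turned only for members with small values and no call. Without emodin 2, 4, 5 and 8 the log2 fold change was -0.013 for Pex13, 0.20 for Acox3, 0.052 for Hsd17b4, 0.099 for Decr2, 0.097 for Phyh and 0.017 for Nudt19. Without emodin 4 and 8 it was 0.094 for Acox3, 0.10 for Acaa1a, 0.051 for Decr2 and 0.044 for Phyh. It was 0.0068 for Acox3 with library totals, and 0.098 for Acox3 and 0.0039 for Phyh with array weights. With a library left out it ranged from -0.034 to 0.060 for Pex13, -0.016 to 0.063 for Pex3, -0.055 to 0.049 for Acox3 and -0.12 to 0.044 for Acaa1a.

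Beyond the livers named in the report, Nudt7 lost its call with array weights (-0.54) and without a low-count filter (-0.69). Acaa1b was called lower with DESeq2, library totals, limma-trend, array weights and the stricter filter (-1.12 to -0.75), Cat with library totals (-0.44), and Pex26 higher with library totals and array weights (0.34 and 0.43). Baat was called lower in 8 of the 12 other settings, Gnpat and Xdh lost their calls with array weights, Far1 with library totals, without a filter and with the block, Acsl1 without a filter, and Creb3l3 with the block. Depth was not low for any member: the smallest count in a liver was 53, of Pex10.

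The titles number the libraries 1 to 8 in each group, and the correlations of same-numbered libraries ran from -0.149 to 0.245, with 2 of 8 highest for their own number. Such weak correlations cannot settle whether the numbers pair the mice, and the main fit took the groups as unpaired. With the number as a replicate block, 1 member was called higher and 6 lower, and 628 of all entries higher and 635 lower against 1102 and 782 without it. Without emodin 2, 4, 5 and 8 those numbers were 573 and 435. With a library left out they ran from 709 to 1333 higher and 521 to 903 lower, lowest without emodin 4 (709 higher) and without emodin 2 (521 lower).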
